A study of Mus musculus with 12 samples.

Results

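The regions described here were open in the livers of Control mice and of mice after vertical sleeve gastrectomy (VSG), and were absent from the list of open regions in Sham mice. FAIRE-seq sequences the DNA that stays soluble after chromatin is fixed with formaldehyde, and peaks of its reads mark accessible chromatin with few nucleosomes. The 3 deposited peak lists (Control, Sham, VSG) were merged into 59246 union regions, and the 1878 members (3.17%) were chosen by the peak calls themselves, as union regions that overlapped a Control peak and a VSG peak by 1 bp or more and no Sham peak. Presence in 2 lists and absence from the third is therefore how the regions were selected and is not a finding. The question the comparison addresses is which open regions are listed in Control and VSG mice and not in Sham mice. VSG mice stayed on the same high-fat diet as Sham mice. The groups are different mice, so loss and return of a region were not observed.

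All mice were male wild-type C57BL/6J, bought from 1 supplier, with no transgene. Control mice were kept on standard chow for 28 weeks without surgery. Sham and VSG mice received a diet with 60 kcal% of saturated fat from an age of 8 weeks, for 14 weeks before and 14 weeks after the operation, with a liquid diet for 4 days after it. In VSG mice about 80% of the stomach was removed, and in Sham mice the stomach was only isolated and pressed with forceps. Control mice thus differ from Sham mice in diet and in surgery at once, and these cannot be told apart. FAIRE-seq and RNA-seq were made from the same livers, 2 mice per group. The labels describe the RNA as poly(A)-enriched whereas the methods describe depletion of ribosomal RNA.

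In liver, promoters rich in CpG are open in nearly every cell type, because unmethylated CpG islands exclude stable nucleosomes. Open regions away from promoters are mostly enhancers, which hepatocyte factors such as the FOXA, HNF4A and CEBP proteins keep free of nucleosomes, and a smaller group bound by CTCF, the factor that anchors chromatin loops. An absent peak means only that the signal in that group did not reach the threshold of the peak caller, not that the DNA was closed.

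There were 42204 Control peaks, 52881 Sham peaks and 44539 VSG peaks. Each list combines 2 mice, so no value of accessibility has a replicate error, and the number of reads behind it is unknown. The signal of a peak is given as its percentile rank within its own list (100 is the highest), since nothing places the lists on a common scale. The lowest listed signal, each on the scale of its own list, was 0.137 for Control, 0.193 for Sham and 0.156 for VSG. In the RNA, 6 of 9 hepatocyte markers were in the table and summed to 11831 to 30574 FPKM per mouse, whereas lymphocyte markers summed to 0.92 to 4.17 FPKM.

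Members were of 2 visibly different kinds, and the sequences of both are printed because the results below turn on them. Most were single-copy DNA rich in G and C, often beside a gene start. The following are stretches of 200 bases (mm9, plus strand, outside annotated exons) of promoter members with high signal ranks, with CpG dinucleotides in capitals.
Pde2a promoter (chr7:108599299-108599498): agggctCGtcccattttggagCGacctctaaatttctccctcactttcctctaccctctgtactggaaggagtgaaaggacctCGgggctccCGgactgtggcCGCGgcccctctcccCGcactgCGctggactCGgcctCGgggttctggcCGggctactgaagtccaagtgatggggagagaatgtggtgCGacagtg
Rtn2 promoter (chr7:19867780-19867979): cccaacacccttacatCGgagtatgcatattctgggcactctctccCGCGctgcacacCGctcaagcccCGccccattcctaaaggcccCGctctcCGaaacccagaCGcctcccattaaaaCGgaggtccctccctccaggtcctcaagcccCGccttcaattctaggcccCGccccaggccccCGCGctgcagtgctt
These stretches hold 12 CpGs in the Pde2a promoter and 13 in the Rtn2 promoter. Pde2a encodes a phosphodiesterase that breaks down cyclic nucleotides, and Rtn2 a membrane protein of the reticulon family.

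The members with the highest signals of all were of a different kind, mostly poor in G and C and present in several copies in the genome. The following stretches, shown in the same way, come from members with the highest mean percentile rank on their side of the promoter definition.
Gm10715 promoter (chr9:3035948-3036147): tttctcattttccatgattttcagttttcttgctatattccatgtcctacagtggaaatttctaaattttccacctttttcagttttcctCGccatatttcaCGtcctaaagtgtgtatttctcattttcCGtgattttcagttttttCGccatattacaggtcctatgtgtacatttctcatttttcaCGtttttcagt
chromosome Y, nearest gene Gm3395 (chrY:2782171-2782370): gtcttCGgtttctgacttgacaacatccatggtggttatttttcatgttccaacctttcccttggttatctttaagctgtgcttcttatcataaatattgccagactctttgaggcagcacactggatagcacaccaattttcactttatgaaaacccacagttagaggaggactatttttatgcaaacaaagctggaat
Cpeb4 intron (chr11:31822594-31822793): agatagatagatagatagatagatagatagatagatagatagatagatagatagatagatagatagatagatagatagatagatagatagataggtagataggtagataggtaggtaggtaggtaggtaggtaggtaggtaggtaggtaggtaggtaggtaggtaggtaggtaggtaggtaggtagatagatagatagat
The Cpeb4 stretch is a run of short tetranucleotide repeats. The median number of exact genomic matches of 31-bp tiles was 7 in the Gm10715 member, 176 in the chromosome Y member and 1477 in the Cpeb4 member.

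A further set held letters like those bound by CTCF. The following non-promoter members are shown because they hold such letters in single-copy DNA, with the matching letters in capitals. In the first 3 the capitals mark the longer CTCF pattern, and in the last they mark CCANNAGGG on either strand.
Esrrb, annotated intron (chr12:87743777-87743976): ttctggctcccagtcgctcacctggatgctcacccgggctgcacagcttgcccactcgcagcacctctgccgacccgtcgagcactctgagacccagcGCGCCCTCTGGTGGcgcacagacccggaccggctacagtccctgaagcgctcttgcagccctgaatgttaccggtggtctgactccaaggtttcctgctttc
intergenic, nearest gene Irx4 (chr13:73297803-73298002): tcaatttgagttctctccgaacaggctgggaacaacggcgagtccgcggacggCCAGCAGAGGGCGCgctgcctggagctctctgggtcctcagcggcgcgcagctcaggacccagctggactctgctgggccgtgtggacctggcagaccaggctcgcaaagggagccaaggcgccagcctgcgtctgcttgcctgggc
Matn4, annotated intron (chr2:164233303-164233484): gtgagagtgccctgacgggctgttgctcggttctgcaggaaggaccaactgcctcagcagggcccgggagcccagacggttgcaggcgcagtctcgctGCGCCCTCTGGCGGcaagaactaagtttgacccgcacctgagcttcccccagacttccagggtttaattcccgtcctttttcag
downstream of Igfbp1 (chr11:7104284-7104483): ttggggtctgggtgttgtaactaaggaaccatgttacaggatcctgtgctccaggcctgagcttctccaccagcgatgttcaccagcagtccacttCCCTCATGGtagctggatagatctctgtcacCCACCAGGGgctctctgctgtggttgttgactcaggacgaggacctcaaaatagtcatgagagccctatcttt
The last of these lies at 6100 bp from the start of Igfbp1, past the 3' end of the gene. A match of letters is a description and does not show that the factor binds there.

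Members lay mostly at the weak end of both lists. The percentile rank of the Control signal had a median of 24, with quartiles of 12.3 and 35.6, and that of the VSG signal a median of 19.2, with quartiles of 10.2 and 30.8. Regions of all 3 groups had medians of 60.5 in Control and 62.3 in VSG mice. The median Control rank was 19.2 in Control and Sham but not VSG, and 12.9 in Control only. The median VSG rank was 22.2 in Sham and VSG but not Control, and 11.3 in VSG only. Low ranks were therefore not particular to the members. Of the 1878 members, 141 (7.51%) lay above the median of the Control list, 69 (3.67%) above that of the VSG list and 28 above both. The members whose ranks were both in the lowest 25% numbered 699 (37.2%). Thus few of the members were strong peaks in either group.

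**Figure D1:**
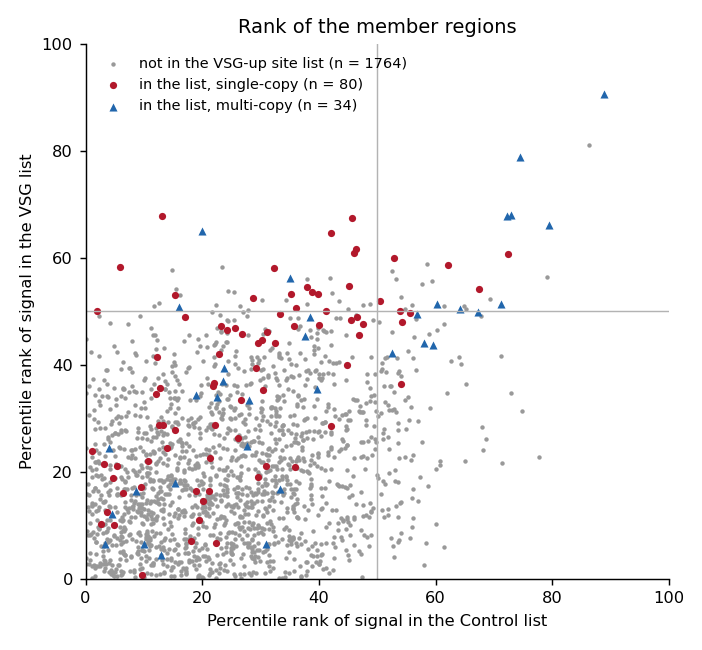
Percentile rank of the signal of each of the 1878 members in the Control list (x axis) and in the VSG list (y axis), with grey lines at the median of each list. Grey points are members outside the authors' list of sites with higher accessibility after VSG, red points are the 80 single-copy members inside it and blue triangles the 34 multi-copy ones. Most points lie at the lower left, and 28 lie above both medians.

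The Control and VSG peaks of a member mostly coincided. A median of 82.9% of a member was covered by both groups, and 1853 members held exactly 1 peak of each. The 2 peaks shared under 130 bp in 2 members only, with a smallest overlap of 9 bp. The median length of members was 310.5 bp, against 487 bp for regions of all 3 groups and 229 to 296 bp for the other patterns. Members covered 713288 bp in all.

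Just inside the rule, the member nearest to a Sham peak lay 5 bp from it, in an intron of Gata4 (chr14:63865124-63865571). Members beside Rassf5 and B930007M17Rik lay 10 bp from a Sham peak. Just outside the rule, the smallest overlap of a Sham peak with the Control and VSG peaks of a region of all 3 groups was 138 bp, beside Vmn1r157, so no region was left out for an overlap of a few bases. The other side of the threshold is more gradual. A Sham peak lay within 200 bp of 317 members (16.9%) and within 1000 bp of 749 members (39.9%), with a median distance of 2210 bp. Many members are therefore neighbours of chromatin that was open in Sham mice.

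Members were found at promoters more often than the regions of any other pattern. Of the 1878 members, 857 (45.6%, Wilson 95% interval 43.4 to 47.9) lay within 1000 bp of a transcription start site (TSS). The share was 37% in regions of all 3 groups, 31.8% in VSG only, 26.8% in Control only, 11.8% in Control and Sham but not VSG, 9.07% in Sham and VSG but not Control, and 7.04% in Sham only. These intervals cover counting error only, since regions share their lists and neighbours. A further 469 members (25%) lay in introns, 439 (23.4%) between genes and 113 (6.02%) in exons. Exon shares were 5.59% in Control only, 4.86% in VSG only, 3.52% in regions of all 3 groups and 3.62% to 4.5% in the rest.

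**Figure D2:**
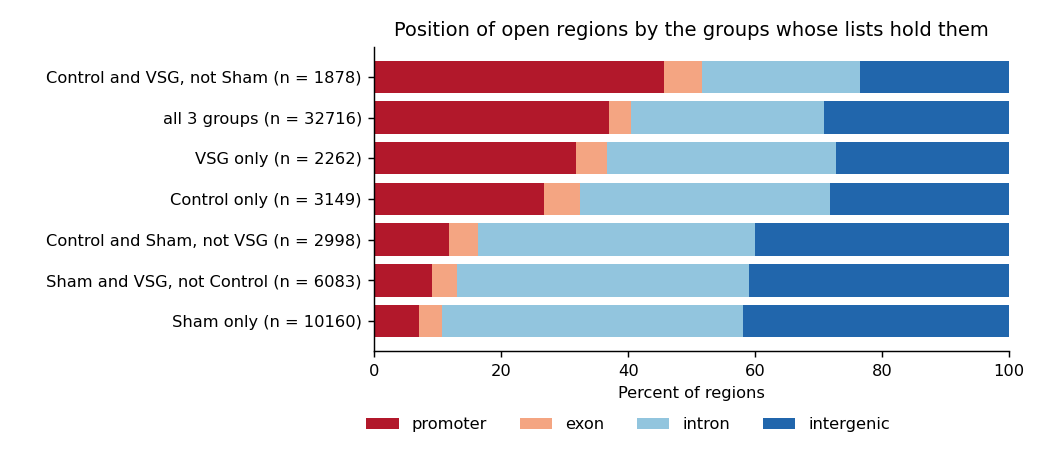
Percent of regions (x axis) at a promoter, in an exon, in an intron or between genes, for the union regions of each pattern of presence in the 3 lists, with the number of regions. The promoter share was highest in the members (45.6%) and lowest in the regions of Sham mice only (7.04%).

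Promoter members often sat beside the gene start rather than over it. Only 324 of the 857 (37.8%) covered an annotated TSS, against 9503 of 12109 (78.5%) promoter regions of all 3 groups. Union regions do not overlap, so a TSS inside a region of all 3 groups could not be covered by a member. Regions of all 3 groups were also longer, with a median of 487 bp against 310.5 bp. The part of the rule and of length in this position was not tested, and the other patterns are not given. The centres of 344 promoter members (40.1%) lay between 200 and 1000 bp downstream of the TSS, inside the transcribed gene, against 16% of the promoter regions of all 3 groups. The centre lay within 200 bp of the TSS in 36.6% of promoter members and in 64.6% of the promoter regions of all 3 groups. Of the 816 genes with a promoter member, 457 (56.0%) also had a promoter region of all 3 groups. A Sham peak lay within 1000 bp of 490 promoter members (57.2%) and of 259 of the 1021 other members (25.4%). Many genes with a promoter member thus had another promoter region that was open in every group. That region can lie at a different TSS of the gene. Over all members, at promoters or not, 689 (36.7%) had a region of all 3 groups within 1000 bp.

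**Figure D3:**
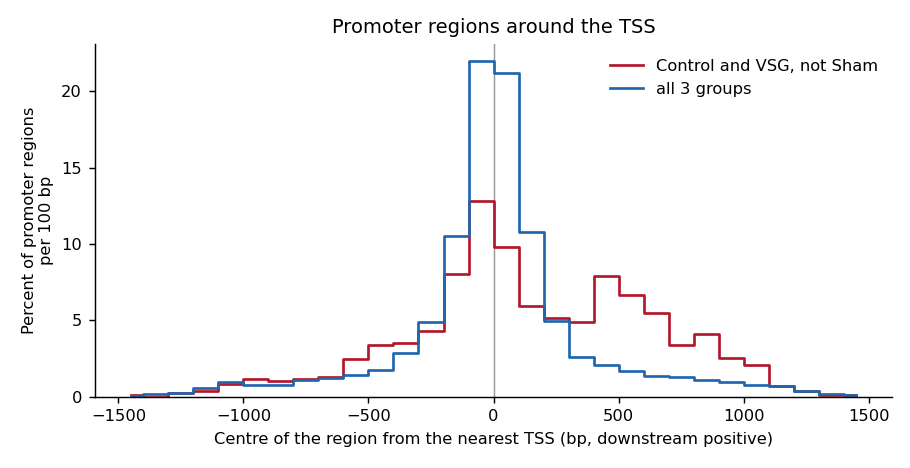
Distance from the nearest TSS to the centre of each promoter region (x axis, bp, downstream positive), as percent of promoter regions per 100 bp (y axis). The members (red, 857 regions) have a shoulder between 400 and 700 bp downstream that the regions of all 3 groups (blue, 12109 regions) lack. A member cannot cover a TSS that lies inside a region of all 3 groups.

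The members were rich in G and C. The GC content of the central 300 bp had a median of 58.7% in members (quartiles 54.3 and 64.9), against 54.3% in regions of all 3 groups, 50.3% in Control and Sham but not VSG, 49.3% in Sham and VSG but not Control and 48.3% in Sham only. A CpG-rich centre, defined as a GC of at least 50% and an observed to expected CpG of at least 0.6, was found in 712 members (37.9%, Wilson 95% interval 35.7 to 40.1), and in 28.8%, 3.67%, 2.56% and 1.04% of the regions of these 4 patterns. In the other patterns without a Sham peak, the median GC was 56% (VSG only) and 53.7% (Control only). Their CpG-rich shares were 22.5% and 16.6%, so CpG-rich centres were not particular to the members. At promoters the CpG-rich share did not stand out, with 67.7% of the members and 68.0% of the regions of all 3 groups. Away from promoters it was 12.9% of the members and 5.73% of the regions of all 3 groups.

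The share of members changed with GC over the whole union. Members were 0.65% of the union regions with a GC of 40 to 45%, 1.89% at 50 to 55%, 5.4% at 55 to 60% and 7.72% at 65 to 70%. The regions of Sham mice only ran the other way, from 44.9% of the union at 40 to 45% to 0.218% at 65 to 70%. The 514 regions with a GC under 40% were an exception, with 27 members (5.25%).

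The promoter share of members and of the union was then set side by side within bins of GC. Under 40% it was 22.2% in members and 8.17% in the union, between 40 and 45% it was 7.41% and 7.32%, and between 45 and 50% it was 11.3% and 7.95%. Between 50 and 55% it was 14.4% and 12.9%. The 2 lowest bins hold 27 members each. Between 55 and 60% GC it was 34.4% in members and 30.9% in the union, between 60 and 65% it was 60.1% and 70.7%, and between 65 and 70% it was 83.7% and 88.5%. At 70% and over it was 85% and 91.5%. The share was thus higher in members in the 5 bins under 60% and lower in the 3 bins above, and these differences were not tested.

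The ranks of regions that were open in all 3 groups, which the rule did not select, also moved with GC. At a GC of 40 to 45% the Sham rank exceeded the mean of the Control and VSG ranks by a median of 20.9 points, and at a GC of 70% and over it was lower, by a median of -5.7 points (Sham minus the mean of Control and VSG). Under 40%, with 80 such regions, the median was 6.7 points. The difference between Control and VSG ranks stayed between -4.5 and 1.2 points over all bins. From a GC of 40% up, GC content thus moved with the Sham list as a whole and not only with the members. As each group is 1 list, the part of library preparation and sequencing in this relation cannot be told apart from that of the group.

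**Figure D4:**
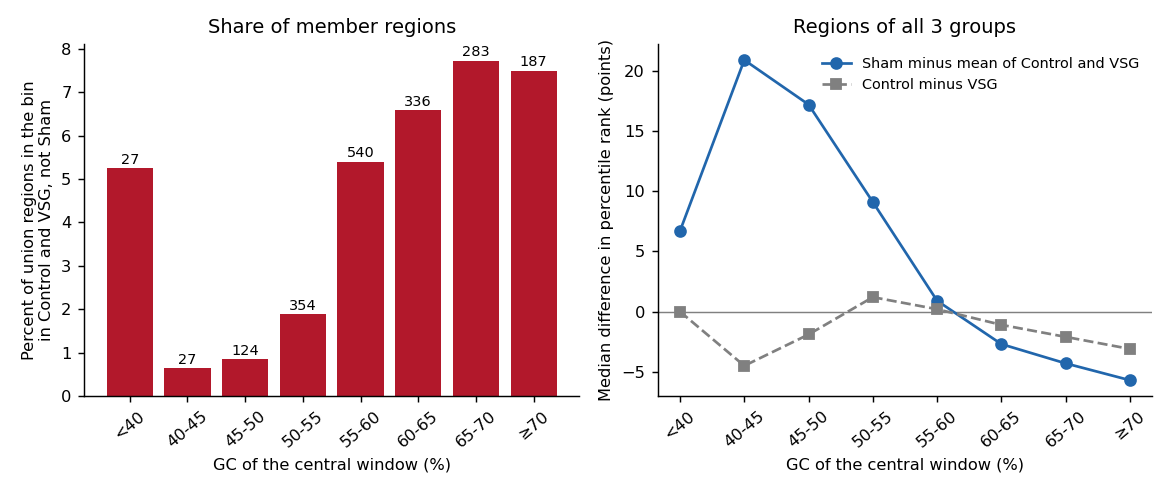
Left, percent of union regions that were members (y axis) by GC of the central 300 bp (x axis), with the number of members above each bar. Right, median difference in percentile rank (y axis) in regions of all 3 groups, for Sham minus the mean of Control and VSG (blue circles) and Control minus VSG (grey squares). The blue line starts at 6.7 points under 40% (80 regions), and falls from 20.9 points at 40 to 45% to -5.7 points at 70% and over.

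Some members lay in DNA with several copies. A member was called multi-copy when the median number of exact matches of its 31-bp tiles in mm9, on both strands, was at least 2. This held for 90 members (4.79%), for 4.41% of the regions of Control only and 3.85% of VSG only, and for 1.04% to 1.48% of the regions of the other patterns. Of the 34 union regions on chromosome Y 10 were members (29.4%), and all 10 were multi-copy, against 2.09% to 4.04% of the union regions on the other chromosomes. The authors kept only reads with a unique place in the genome, so the reads behind a multi-copy region come from its few distinguishing bases, and its level is uncertain. The part of this in the result was not tested.

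Multi-copy members gathered in a few places. Sfi1, which encodes a centrosome protein, was the nearest gene of 10 members within 100 kb, 3 of them multi-copy. All 5 members nearest to Gm15319, all 4 nearest to Sp110 and all 3 nearest to C130026I21Rik were multi-copy. The promoter members of Gm17535, Gm16869 and Gm10715 lay within a few kilobases of each other at the start of chromosome 9, with 37 and 29 copies per tile for the first 2 genes and 7 and 5 for the 2 members of Gm10715. The 2 promoter members of Gm10807 had 2.5 and 2 copies per tile. None of these Gm genes had a value in the RNA table by its symbol.

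Among single-copy members, the highest mean ranks at promoters belonged to Nudt19, Pde2a, 2200002D01Rik, Rtn2, AA467197, Pdik1l, Cep170 and Arhgap27, picked after the copy numbers were seen. The Nudt19 member (chr7:36340165-36340623), 700 bp from the start of this Nudix hydrolase gene, had a rank of 67.4 in Control and 54.1 in VSG mice and lay 42 bp from a Sham peak. The AA467197 member covered a TSS, had ranks of 55.6 and 49.7 and lay 5827 bp from the nearest Sham peak. Away from promoters, the highest single-copy members lay nearest to Sfi1, Gm11399, Cryaa, Lor, Esrrb, Eif4e, Ces5a and Adssl1. The Esrrb member had nearly equal ranks of 58.5 and 58.8 and lay 18426 bp from a Sham peak. The Lor member, in an exon of the gene for the skin protein loricrin, had ranks of 62.1 and 58.7, a GC of 74.7% and the nearest Sham peak at 25360 bp. None of Cryaa, Ces5a and Irx4 had an FPKM above 0 in any liver, so that a nearest gene need not be expressed.

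Several genes held 3 or more members in single-copy DNA. Jarid2, a partner of the Polycomb repressive complex, had 4, of which 3 were promoter members. Dll1, a ligand of the Notch receptor, had 3, with ranks of 54.3 and 48.0 in Control and VSG mice for the member over the TSS. Pdgfa, a platelet-derived growth factor, had 3 promoter members spread over its start. The transcription factor genes Nfix, Klf3, Zbtb7a and Mxi1 each had 3. In all, 31 genes had 3 or more members within 100 kb, 117 had 2 and 1475 had 1.

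The letters CCANNAGGG, the core of the CTCF motif, were the most frequent of the 20 patterns searched in both strands of the central 300 bp of the members. They occurred in 289 members (15.4%, Wilson 95% interval 13.8 to 17.1), against 9.16% of all union regions and 9.36% of the regions of all 3 groups. At promoters the shares were 8.98% in members and 6.97% in regions of all 3 groups, and away from promoters 20.8% (212 of 1021) and 10.8%. A longer CTCF pattern, added after this was seen, occurred in 158 of the non-promoter members (15.5%) and in 6.23% of the non-promoter regions of all 3 groups. It was also frequent in Control and Sham but not VSG (9.87%, against 9.58% of all members and 1.41% of Sham and VSG but not Control), so it was not particular to the members. Within bins of GC, the short letters were in 21.8% of members and 10% of the union at 50 to 55%, in 19.3% and 12.8% at 55 to 60%, and in 11.9% and 10% at 60 to 65%.

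Letters of hepatocyte factors were rarer in the members. The FOXA letters TGTTTAC, a site of the pioneer factors that open liver enhancers, were in 2.24% of members, 4.82% of regions of all 3 groups and 7.59% of Sham only. The HNF4A letters CAAAGTCCA were in 0.532%, 1.66% and 2.21%. The AP-1 letters TGANTCA, bound by the Fos and Jun proteins, were in 5.17%, 8.81% and 15.8%. These 3 patterns hold more A and T than the members do, and their shares away from promoters were 2.84%, 0.881% and 6.86% in members against 6.05%, 2.27% and 11.2% in regions of all 3 groups.

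Letters of promoter factors were rarer in promoter members than in promoter regions of all 3 groups. The search covered the central 300 bp, which lay within 200 bp of the TSS at its centre in 36.6% and 64.6% of them. The part of this position in the shares was not tested. The SP letters GGGGCGGGG were in 11.8% of promoter members against 14.9%, though over all members and all regions of all 3 groups the shares were 7.99% and 7.06%. The ETS letters CCGGAAGT were in 1.63% of promoter members against 6.46% of promoter regions of all 3 groups. The NFY letters CCAATCAG were in 0.817% against 4.29%, the CRE letters TGACGTCA in 0.583% against 2.72% and the YY1 letters AAGATGGCG in 0.583% against 2.90%. The ZNF143 letters CTACAATTC were in none of the members and in 0.201% of the union.

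The authors' own site lists overlapped the members by construction, since they come from the same FAIRE libraries. Sites called higher in VSG against Sham took in 114 members (6.07%, against 0.699% of all union regions), which is 27.5% of that list. Reversible sites, lower in Sham than in both other groups, took in 70 members (3.73%, against 0.295%), which is 40% of that list, and all 70 were also in the first list. None of the 99 sites more accessible in Sham mice was a member. Thus 1764 of the 1878 members were in no list of sites that differed between VSG and Sham mice, and absence of a Sham peak mostly did not go with a called difference in reads.

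The 114 listed members had a median VSG rank of 43.9 and a median Control rank of 29.4, against 18.5 and 23.8 in the other 1764. Their share at promoters was equal, at 45.6% in both. Of the 114, 34 (29.8%) were multi-copy, and 37.8% of the multi-copy members were listed against 4.47% of the single-copy ones. Genes at listed members included Nudt19, Arhgap27, Cep170, Dll1 and, with the member over its TSS, Hlf.

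RNA levels of the nearest genes were measured in the 2 livers of each group as FPKM, summed over the transcripts of a gene. Genes with a promoter member were expressed at modest levels. Of the 816 genes, 769 were in the table, with a median of 1.98 for the mean FPKM over 6 mice, and 476 (61.9%) had a mean of at least 1. Genes with a promoter region of all 3 groups had a median of 3.99, with 75% at 1 or above. The median was 2.21 (62.2% at 1 or above) for Sham and VSG but not Control, near that of the members. It was 2.94 (65.1%) for Sham only and 5.24 (75.2%) for Control and Sham but not VSG. Genes with a member in the body had a median of 1.10, and those of regions of all 3 groups 2.07. It was 2.74 for Control and Sham but not VSG, 2.21 for Sham and VSG but not Control and 1.96 for Sham only. FPKM is scaled by transcript length, so these levels can be set side by side.

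Few genes with a promoter member changed in RNA. With limma on log2(FPKM + 1) over 9869 genes at an FDR of 10%, 0 of the 511 tested genes with a promoter member were called between VSG and Sham mice, where 0.0507% of all genes tested were called. Between Sham and Control mice 0 of 511 were called, and between VSG and Control mice 1 of 511, where 0.284% and 0.284% of all genes were called. At an unadjusted p under 0.05 there were 27, 52 and 39 genes, or 5.28%, 10.2% and 7.63%, against 4.85%, 10.9% and 9.56% of all genes tested. The shares of member genes were near the background in each comparison. The 3 comparisons share mice, so that they are not independent of each other.

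The median log2 change of the 511 genes was 0.07 for VSG against Sham, -0.08 for Sham against Control and 0.00 for VSG against Control. The medians over all genes tested were 0.08, 0.04 and 0.13. The SD between the mice of a group of such a median was 0.07, and the difference of these medians from those over all genes was not tested. Of the 511 genes, 16 (3.13%) were listed at 0 in Sham mouse 1 and at 1 or above in the other 5 mice, against 1.67% of all genes tested, and 0.391% to 1.17% of the 511 were listed at 0 in this way in each other mouse. Without Sham mouse 2, 11 of 495 genes with a promoter member were called in VSG against Sham (2.22%, against 0.789% of all 9634 genes in that fit) and 16 in Sham against Control (3.23%, against 1.74%). Sham mouse 1, with its listed zeros, is then alone in its group, and the part of these zeros in the calls was not tested. Cpeb4, at 9.15 and 10.2 in Control, 0 and 6.35 in Sham and 7.19 and 8.39 FPKM in VSG mice, was among them. In whole liver, fewer cells of a type and less RNA per cell cannot be told apart.

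The 1 promoter-member gene called was Lifr, the receptor of leukemia inhibitory factor, with a member 348 bp from its start. It was listed at 0 in both Control mice, at 7.08 and 3.77 in Sham and at 7.04 and 7.45 FPKM in VSG mice. The adjusted p was 0.0840 for VSG against Control and 0.115 for Sham against Control (limma, Benjamini-Hochberg). A listed 0 can be a failed estimate in this table and is not read as absence of RNA. No fold is given against values listed at 0. The VSG against Control call was not made without the expression filter (adjusted p 0.151 in limma) or with single transcripts. The VSG against Control call was lost without either Control mouse or either VSG mouse (adjusted p of 0.247 to 0.542) and with a replicate block (0.234), and with a pseudocount of 0.1 Sham against Control passed as well (0.0453).

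Zbtb39, a zinc finger gene with a promoter member, had the smallest unadjusted p in VSG against Sham (0.00174, adjusted 0.481 in limma). It was listed at 0 in both Control and both VSG mice and at 1.71 and 1.65 FPKM in Sham mice. Next came Phf17, an H4 acetylation cofactor, at 4.44 and 4.41 in Control, 5 and 5.07 in Sham and 2.09 and 1.41 FPKM in VSG mice (log2 change -1.15, SE 0.23, adjusted p 0.651 in limma). Foxk2, a forkhead repressor, was at 1.83 and 1.35 in Control, listed at 0 in both Sham mice and at 1.29 and 0.993 FPKM in VSG mice. Klhl17 was at 0.353 and 0.573 in Sham and at 3.12 and 1.93 FPKM in VSG mice. Npepps, an aminopeptidase, was at 7.45 and 8.17 in Control, 2.97 and 3.38 in Sham and 6.17 and 8.30 FPKM in VSG mice. In Npepps both Sham mice were below all other mice. A listed 0, as for Foxk2 and Zbtb39, can be a failed estimate in this table, where Eif4e, a translation factor that every cell uses, is also listed at 0 in Sham mouse 1, and is not read as absence of RNA. Neither Foxk2 nor Npepps passed the adjusted threshold in any comparison (adjusted p of 0.215 to 0.915 in limma).

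Dynll2, a dynein light chain with a member over its TSS, was at 61.6 and 63.7 in Control, 27.5 and 22.9 in Sham and 42.9 and 42.8 FPKM in VSG mice. The groups did not overlap, and the log2 change was -1.29 (SE 0.20, adjusted p 0.176 in limma) for Sham against Control and 0.75 (SE 0.20, adjusted p 0.879) for VSG against Sham. Shb, an adaptor of tyrosine kinase receptors with 3 members, was at 15.7 and 18.5 in Control, 5.09 and 6.24 in Sham and 7.65 and 8.22 FPKM in VSG mice. Ntpcr, Bcar1 and Dusp6, each with a promoter member, were higher in all 4 high-fat mice than in Control mice without passing the adjusted threshold. Ntpcr was at 2.57 and 1.88 in Control, 6.46 and 7.16 in Sham and 7.67 and 7.61 FPKM in VSG mice (VSG against Control 1.43, adjusted p 0.222 in limma). With 2 mice against 2, the smallest exact permutation p is 0.333, so single genes have no test beyond the limma fit. How many of all tested genes have groups that do not overlap was not counted. Separation of the groups, here and in the genes below, is therefore not read as a trait of genes with a member.

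Genes of liver pathways were then examined, from lists of metabolic, regulatory and cell type genes. Of 364 list genes, 31 (8.52%) were the nearest gene of a member within 10 kb, against 5.06% of annotated protein coding genes and 6.95% of the 9869 tested genes. There were 35 such members. The glucose metabolism and insulin signalling list had 5 of 21, and the lists of liver transcription factors, of chromatin regulators and of inflammation had 5 of 36, 5 of 36 and 5 of 29. No gene of the acute phase, bile acid, cholesterol, lipogenesis or endoplasmic reticulum stress lists had a member, nor did a Kupffer cell, stellate cell, neutrophil or lymphocyte marker.

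Members at glucose and amino acid genes lay inside or downstream of the gene. Tat, tyrosine aminotransferase, had a member in its last annotated part (chr8:112522475-112523295, in an exon), with ranks of 34.8 in Control and 5.01 in VSG mice and a Sham peak at 443 bp. Its RNA was at 1376 and 1477 in Control, 210 and 188 in Sham and 233 and 283 FPKM in VSG mice. Both high-fat groups were far below Control. For Sham against Control Tat fell by 2.84 on the log2 scale (SE 0.24, adjusted p 0.0445 in limma). It was the 1 gene called of the 686 tested with a member within 10 kb (0.146%, against 0.284% of all genes tested). For VSG against Control Tat fell by 2.47 on the log2 scale (SE 0.24, adjusted p 0.0679). Without 1 Control or 1 VSG mouse these adjusted p-values rose to between 0.138 and 0.613 and between 0.198 and 0.652, and with a replicate block to 0.154 and 0.234. VSG and Sham mice differed by 0.37 (SE 0.24, adjusted p 0.944).

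Pck1, which commits carbon to gluconeogenesis, had 3 members, 1 in an intron, 1 in an exon and 1 downstream of the gene (chr2:172986821-172988224), each within 280 bp of a Sham peak. Its RNA was at 1490 and 1485 in Control, 454 and 688 in Sham and 452 and 1052 FPKM in VSG mice (Sham against Control -1.41, SE 0.49, adjusted p 0.418 in limma). Igfbp1, an insulin-repressed binding protein of insulin-like growth factors, was at 466 and 567 in Control, 24.2 and 339 in Sham and 76.5 and 31.9 FPKM in VSG mice. In both genes each Control mouse was above each high-fat mouse, and none passed the adjusted threshold. Insr, the insulin receptor, ranged from a listed 0 to 15.7 FPKM within the VSG group alone.

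Further genes with members were Ass1, Mtss1 and Por. Ass1, an enzyme of the urea cycle with an intronic member of 1233 bp, was at 1309 and 1302 in Control, 300 and 256 in Sham and 334 and 545 FPKM in VSG mice (Sham against Control -2.23, SE 0.32, adjusted p 0.159 in limma). Mtss1, an actin-binding protein with 3 intronic members, was at 46.8 and 43.4 in Control, 5.30 and 12.2 in Sham and 17.5 and 13.3 FPKM in VSG mice. In both genes the Control mice were above the other 4. Por, the reductase that supplies electrons to cytochrome P450 enzymes, had groups that overlapped, at 122 and 178 in Control, 80.9 and 150 in Sham and 101 and 288 FPKM in VSG mice.

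**Figure D5:**
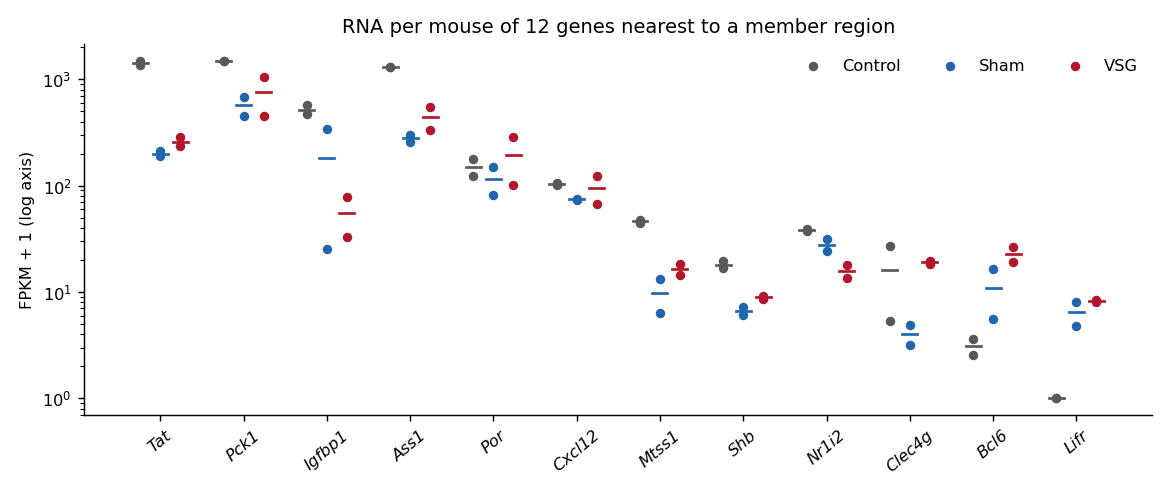
FPKM + 1 (y axis, log scale) of 12 genes nearest to a member in each of the 2 Control (grey), Sham (blue) and VSG (red) mice, with the group mean as a line. Control mice lie above all other mice for Tat, Pck1, Igfbp1, Ass1, Mtss1, Nr1i2 and Shb, and Lifr is listed at 0 in both Control mice. The 12 genes were picked for display, and such separation was not counted over all tested genes. For Sham against Control, unadjusted limma p was under 0.05 in 11.2% of genes within 10 kb of a member and 10.9% of all tested.

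Among nuclear receptors and liver factors, Nr1i2, the pregnane X receptor, had a promoter member 305 bp upstream with low ranks of 6.44 and 1.32. Its RNA was at 38.4 and 36.1 in Control, 23.2 and 30.2 in Sham and 12.5 and 17 FPKM in VSG mice, with groups that did not overlap (VSG against Control -1.29, SE 0.25, adjusted p 0.310 in limma). Bcl6, a transcriptional repressor with an intronic member, was at 2.61 and 1.57 in Control, 15.3 and 4.60 in Sham and 18 and 25.7 FPKM in VSG mice. Rxra, the partner of many nuclear receptors, was listed at 0 in Sham mouse 1 and lay between 65 and 86.7 FPKM in the other 5 mice. Gata4, a factor of early liver development, was at 2.35 and 2.59 in Control, 2.07 and 2.27 in Sham and 3.19 and 2.73 FPKM in VSG mice. Its groups did not overlap, and none of its comparisons passed (adjusted p of 0.814 to 0.944 in limma). The share of all tested genes that separate like Nr1i2 and Gata4 was not counted. Foxa3 ranged from 12.4 to 33.3 FPKM with overlapping groups. Hlf, a circadian output factor, was at 2.50 and 2.61 in Control, listed at 0 in both Sham mice, and at 0 and 4.86 FPKM in VSG mice. Rora, a circadian receptor, ranged from a listed 0 to 6.20 FPKM with overlapping groups.

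Chromatin regulators with a promoter member included Kdm2b, which binds unmethylated CpG islands, Ezh2, the Polycomb methyltransferase, Chd4 of the NuRD complex and Ctcf itself. Ctcf ranged from 1.74 to 6.54 and Kdm2b from 1.60 to 2.43 FPKM, with overlapping groups. Ezh2 ranged from 0.609 to 1.38 FPKM, and Chd4 was listed at 0 in Sham mouse 1 and VSG mouse 2. None of these 4 passed the adjusted threshold in any comparison.

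Genes of inflammation with a member were Nfkbia, the inhibitor of NF-kappaB, Rela, an NF-kappaB subunit, Irf7, the interferon regulatory factor, Cxcl12, a chemokine, and Tlr9, a receptor for DNA. Cxcl12 was at 104 and 100 in Control, 73.6 and 72.7 in Sham and 65.6 and 122 FPKM in VSG mice. Nfkbia ranged from 21.2 to 32.6, Rela from 9.55 to 20 and Irf7 from 6.36 to 27.1 FPKM, each with overlapping groups. Of the immediate early genes, Jund ranged from 21.9 to 49.7 FPKM with overlapping groups. Gadd45b was at 3.85 and 3.79 in Control, 1.13 and 3.20 in Sham and 2.75 and 3.31 FPKM in VSG mice, with both Control mice above the other 4 (adjusted p of 0.566 to 0.944 in limma). Klf4, Bhlhe41 and Tlr9 were under the expression minimum.

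Of the cell type markers, Clec4g, a lectin of sinusoidal endothelial cells, had a member in an exon (chr8:3718548-3718857) 41870 bp from the nearest Sham peak, with ranks of 12.3 and 44.7. Its RNA was at 26.1 and 4.35 in Control, 3.93 and 2.19 in Sham and 18.5 and 17.4 FPKM in VSG mice (VSG against Sham 2.25, SE 0.79, adjusted p 0.944 in limma). All 8 sinusoidal markers were in the table, and their summed level was 21.6 to 47.4 in Control, 7.90 to 8.71 in Sham and 30.3 to 33.6 FPKM in VSG mice, without overlap between Sham and the other groups. The 9 stellate cell markers summed to 48.6 to 50.3, 19.4 to 32.7 and 57.6 to 74.7 FPKM. These sums moved in the order of the members' presence, and their part in the peak lists was not tested. Clec4g itself supplied 26.1 of 47.4 and 4.35 of 21.6 FPKM of the sinusoidal sum in the Control mice. It supplied 3.93 of 8.71 and 2.19 of 7.90 in Sham mice, and 18.5 of 33.6 and 17.4 of 30.3 in VSG mice. The hepatocyte sums had overlapping groups, at 20907 to 25464 in Control, 11831 to 27015 in Sham and 20814 to 30574 FPKM in VSG mice. The lymphocyte sums, at 0.92 to 1.17, 1.87 to 2.72 and 1.72 to 4.17 FPKM, did not follow the order of the members' presence. Sox9, a cholangiocyte marker with a promoter member, was at 0.384 and 1.26 in Control, 2.05 and 2.75 in Sham and 0.814 and 0.477 FPKM in VSG mice, the opposite order. The 5 cholangiocyte markers summed to 30.7 to 186 FPKM with overlapping groups. Kupffer cell markers summed to 36.8 to 53.7 in Control, 126 to 135 in Sham and 105 to 340 FPKM in VSG mice, and the 8 neutrophil markers, 1 of them listed at 0 in every mouse, to 113 to 166, 1973 to 5324 and 231 to 2090 FPKM.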

How the data were processed

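FAIRE-seq and RNA-seq of mouse liver were analysed from the deposited tables, and samples were grouped by their titles. Per the labels and methods, the authors aligned FAIRE reads to mm9 with bowtie1, kept unique, properly paired reads without duplicates, called peaks with F-seq and retained by IDR those found in both mice of a group. The deposited signal of a peak is the F-seq value, one list per group. The authors estimated the deposited FPKM values for each RefSeq transcript and mouse with Cufflinks after TopHat2. The authors' DESeq2 tables (mean count, fold change and p-value per transcript for Control against Sham and Sham against VSG) were not used, and their site lists, which give positions only, were used as a description.

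Peaks that overlapped or touched were merged. TSS and exons were those of protein coding, lincRNA and antisense transcripts of GENCODE M1 on NCBIM37 (mm9), and the sequences printed are from that genome. Of 34933 transcripts, 34042 were matched to a symbol, giving 24907 genes or unmatched transcripts. Genes that reached 1 FPKM in 2 mice or more were fitted as log2(FPKM + 1) with limma 3.58.1 (R 4.3.3, trended variance, all 6 mice in 1 fit), and p-values were adjusted by Benjamini-Hochberg over all 9869 genes, at an FDR of 10%. The steps were tested on simulated data with known answers. Other steps used Python 3.11.15 with numpy, pandas, pysam and scipy. Pairs of replicate numbers correlated at 0.118, 0.0643 and 0.039, so the numbers were not taken to pair mice.

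Named regions were the 8 promoter and 8 other members with the highest mean of the 2 percentile ranks and the 5 highest in the site lists. Named genes were those nearest to these regions, list genes within 10 kb of a member, promoter-member genes under an adjusted p of 0.1 and, where there were none, the 5 smallest p-values in VSG against Sham. Others were named after their values were seen: the single-copy and CTCF-letter regions, the Igfbp1 sequence, the genes without 1 Sham mouse, genes with 3 or more members, and the genes with the smallest p in the other 2 comparisons. The members and gene lists were chosen with earlier results of these data known. Alternatives covered the peaks used, the overlap, the distance to Sham peaks, the RNA fit and leaving out each mouse. Intervals are Wilson 95% and cover counting error only. A few genes and 1 sequence that these rules name are not reported here.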

Additional observations from a re-analysis of the deposited data

How the results depend on the processing

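The number of members depended on which peaks entered the union. It was 3681 with each list cut to 42204 peaks, 1136 with peaks of at least 250 bp and 1129 without a Sham peak within 1000 bp. With the 50% of peaks of highest signal it was 1271, but these held 28 of the 1878 members (1.49%). Under the same 4 alternatives, in that order, the promoter share was 40.1%, 56.1%, 32.5% and 51.1%, and the CpG-rich share 33.4%, 46.2%, 30.9% and 49.5%. The promoter share was 52.8% within 2500 bp, and the CpG-rich share 33.5% with stricter limits. The share in the VSG-up list was 4.10% with equal numbers of peaks and 4.47% in single-copy members, an alternative chosen after the data were seen. The share with CTCF letters was 18.8% without a Sham peak within 1000 bp and 12.5% with the strongest 50% of peaks, also chosen afterwards.

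Calls among genes with a promoter member rose most without Sham mouse 2, to 11 in VSG against Sham (2.22%, against 0.789% of all genes in that fit) and 16 in Sham against Control (3.23%, against 1.74%), and the cause was not tested. In VSG against Sham there was 1 without a filter (Zbtb39), and 0 to 11 when 1 mouse was left out. In Sham against Control there was 1 with a pseudocount of 0.1, 2 without a filter, 1 within 10 kb or 100 kb, and 0 to 16 when 1 mouse was left out. In VSG against Control there were 2 within 10 kb or 100 kb, 0 without a filter, with single transcripts or without a Sham peak within 1000 bp, and 0 to 1 when 1 mouse was left out. A replicate block gave 0 calls in each comparison, with replicate numbers that do not pair the mice. The median change of Sham against Control was 0.03 without a Sham peak within 1000 bp. When 1 mouse was left out, the medians ranged from 0.02 to 0.19 for VSG against Sham and from -0.07 to 0.11 for VSG against Control. The missing depth limits what the absence of a peak can show.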
